A study of Mus musculus with 6 samples.

Results

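The 10 genes described here are 4 ligands of the tumour necrosis factor (TNF) superfamily (Tnf, Lta, Ltb and Tnfsf11), 5 TNF receptor genes (Tnfrsf4, Tnfrsf9, Tnfrsf18, Tnfrsf1b and Cd27) and Icos, a costimulatory receptor of the CD28 family. They were chosen by symbol, without a threshold on any measured value but with earlier results of these data known. Shares of them called below are therefore descriptions. Each has a single row among the 18122 rows of the table. All 10 passed the filter on low values, which kept the 9691 rows whose mean reached 1 FPKM. FPKM are fragment counts scaled to transcript length and to library size, so levels of different genes can be set side by side within a library. Their totals ranged from 301211 in the first Dusp2KO CD44hi library to 332997 in the Dusp2KO CD44lo library. Comparisons between libraries thus depend on the scaling, and other scalings are given in the last section. The libraries are bulk RNA-seq of mouse CD8+ T cells from lymph nodes, in 4 groups: 2 libraries of Dusp2KO CD44hi cells, 2 of WT CD44hi cells, 1 of Dusp2KO CD44lo cells and 1 of WT CD44lo cells. Dusp2KO stands for Dusp2-/- in the labels, and Dusp2 encodes a nuclear phosphatase of MAP kinases. Cells of every group had spent 18 h in wells coated with anti-CD3 at 1 µg/mL, in medium with anti-CD28 at 1 µg/mL, IL-4 at 20 ng/mL and IFN-α at 50 ng/mL, conditions meant to induce virtual memory T cells, and were then sorted on CD44. CD44hi stands for the sorted cells with super-high CD44. The labels give neither age nor strain, and do not say whether libraries of a group came from separate mice or cultures, so a p-value here reflects only how far these particular libraries differ. The treatment text names Cd4-Cre Rpa1fl/fl mice as the mutants, whereas the titles, the genotype field and the design name Dusp2, and the levels of Dusp2 below go with the titles. The description field names 10X Genomics, whereas the extraction text describes libraries made from total RNA by a standard Illumina protocol, and the table holds a single value per gene and library with no cell barcodes.

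TNF superfamily ligands are mostly trimeric membrane proteins, some of which are shed, and their receptors signal through TRAF adaptors to NF-kB and MAP kinases. On activated CD8+ T cells the receptors CD137 (Tnfrsf9), OX40 (Tnfrsf4), GITR (Tnfrsf18), the second TNF receptor (Tnfrsf1b) and CD27 act as costimulators that support survival and expansion, as ICOS does through its own ligand and PI3K. Lymphotoxin α (Lta) and lymphotoxin β (Ltb) assemble into a membrane heterotrimer that binds the lymphotoxin β receptor, whereas lymphotoxin α alone, like TNF, is secreted and binds both TNF receptors.

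The libraries held 23490008 to 55830235 reads assigned to genes, recovered from the steps between FPKM values, and the Dusp2KO CD44lo library was the shallowest. The Dusp2 level was 0 and 0.0283 FPKM in Dusp2KO CD44hi libraries, against 82.6 and 83.9 FPKM in their WT counterparts, and 0 FPKM in the Dusp2KO CD44lo library, against 116 FPKM in the WT CD44lo library. Cd44 was at 65.3 to 79.9 FPKM in the 4 CD44hi libraries and at 1.33 and 1.43 FPKM in the CD44lo libraries. The CD8 T cell genes Cd3e, Cd3d, Cd8a and Cd8b1 were at 51.7 FPKM or more in every library, while Cd4 stayed at or below 0.0228 FPKM, Foxp3 at or below 0.193 FPKM and the B cell gene Cd79a at or below 0.379 FPKM. The summed dendritic cell markers, 3 of 4 of which are in the table, reached 1.87 and 1.83 FPKM in Dusp2KO CD44hi libraries, against 0.619 and 0.669 FPKM in WT CD44hi libraries, and 0.665 FPKM in the Dusp2KO CD44lo library, against 0.145 FPKM in the WT CD44lo library. Zbtb46 made up nearly all of that sum, and the more specific Flt3 and Xcr1 were at or near 0. The endothelial gene Pecam1, which T cells also carry, made up most of a stromal marker sum of 5.60 and 5.32 FPKM in Dusp2KO CD44hi libraries, against 8.82 and 7.24 FPKM in WT CD44hi libraries, and 9.96 FPKM in the Dusp2KO CD44lo library, against 14.4 FPKM in the WT CD44lo library. The share of reads from 13 mitochondrially encoded genes was 2.73% and 2.94% in the Dusp2KO CD44hi libraries, against 2.15% and 2.03% in the WT CD44hi libraries, and 3.79% in the Dusp2KO CD44lo library, against 2.56% in the WT CD44lo library. Cd3e was at 51.7 and 53.5 FPKM in Dusp2KO CD44hi libraries, against 88.6 and 76.9 FPKM in WT CD44hi libraries, and 69.9 FPKM in the Dusp2KO CD44lo library, against 81.7 FPKM in the WT CD44lo library. Cd3d was at 126 and 125 FPKM in Dusp2KO CD44hi libraries, against 174 and 157 FPKM in WT CD44hi libraries, and 164 FPKM in the Dusp2KO CD44lo library, against 172 FPKM in the WT CD44lo library. The part of these shifts in the genotype differences below was not tested.

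Transcripts of the receptors outweighed those of the ligands in each library. Tnfrsf9 had the highest mean over the 6 libraries, 217 FPKM, which is above 98.2% of the tested genes. Ltb followed with a mean of 117 FPKM, then Cd27 with 74.7 FPKM and Tnfrsf1b with 49.8 FPKM. Tnfsf11, Tnfrsf4, Icos, Tnfrsf18 and Lta had means between 25.3 and 30.0 FPKM, and their ranges over the libraries overlapped. Tnf was lowest with a mean of 13.9 FPKM, resting on 778 to 1280 reads per library. Each gene overlapped the next in this order in its range over the libraries, as Tnfrsf9 (197 to 277 FPKM) and Cd27 (62.2 to 84.7 FPKM) each did with Ltb (66.9 to 227 FPKM), so the order of neighbours is not fixed beyond the spread. The widest relative range over the libraries belonged to Tnfrsf4, whose highest level was 5.94 times its lowest, and to Tnfsf11 with 5.43 times. Cd27 and Tnfrsf9 had the narrowest, 1.36 and 1.41 times.

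**Figure D1:**
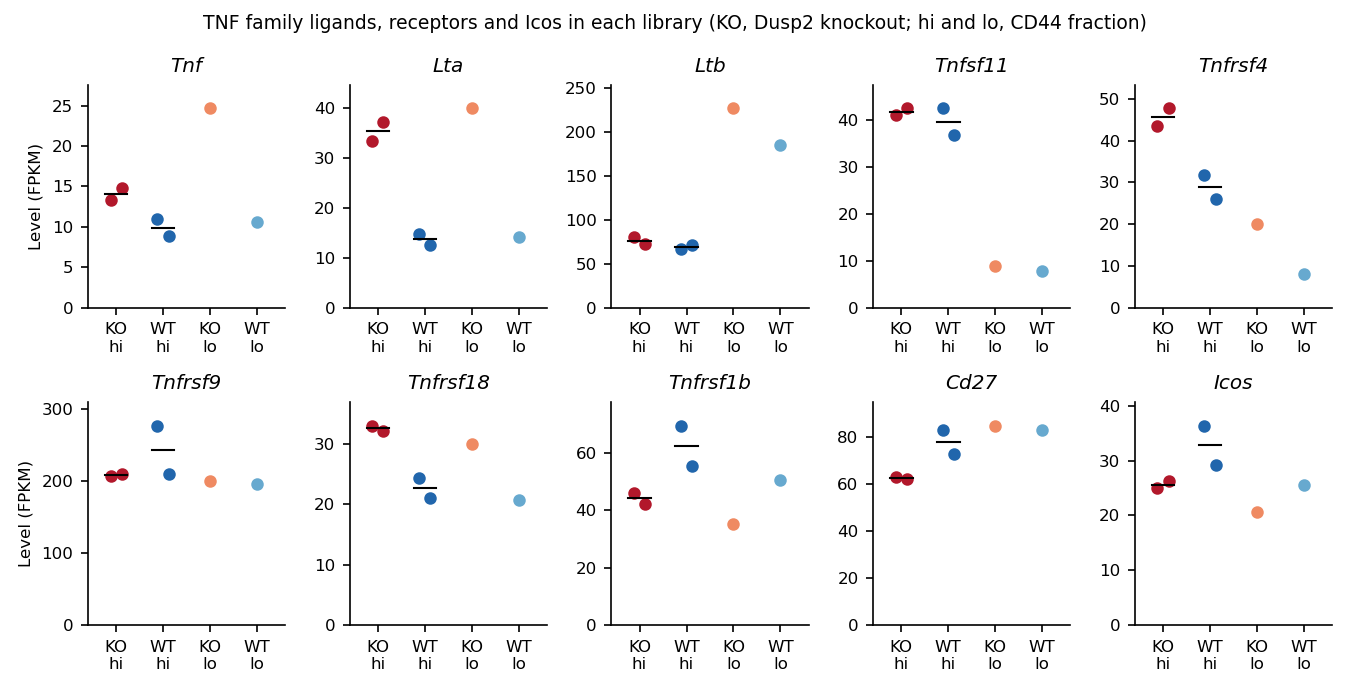
Level in FPKM of each gene (a panel each, axis from 0) in the 6 libraries, by genotype (KO, Dusp2KO) and CD44 fraction (hi, lo); points are libraries and black lines are means of 2 libraries. Lta was at 33.4 to 39.9 FPKM in the Dusp2KO libraries and at 12.6 to 14.8 FPKM in the WT libraries, whereas Tnfsf11 and Ltb separated by CD44 fraction.

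The 3 ligand genes Ltb, Tnf and Lta are neighbours on chromosome 17, yet they moved differently between the groups. Their upstream sequences are therefore shown together, 250 bases before each start in RefSeq GRCm38.p6, 5′ to 3′ on the gene's strand. Capitals mark every match to the motifs searched: AP-1 (TGANTCA), STAT5 (TTCNNNGAA), the NFAT core (GGAAAA), a canonical NF-kB decamer (both strands) and the TATA box (TATAAA, gene's strand only).
Tnf (chr17:35202008-35202257, minus strand): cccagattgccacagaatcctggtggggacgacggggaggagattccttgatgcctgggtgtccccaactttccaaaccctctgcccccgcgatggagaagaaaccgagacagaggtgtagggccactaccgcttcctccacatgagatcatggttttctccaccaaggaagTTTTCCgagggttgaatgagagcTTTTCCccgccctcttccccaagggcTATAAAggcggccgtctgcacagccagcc
Lta (chr17:35205352-35205601, minus strand): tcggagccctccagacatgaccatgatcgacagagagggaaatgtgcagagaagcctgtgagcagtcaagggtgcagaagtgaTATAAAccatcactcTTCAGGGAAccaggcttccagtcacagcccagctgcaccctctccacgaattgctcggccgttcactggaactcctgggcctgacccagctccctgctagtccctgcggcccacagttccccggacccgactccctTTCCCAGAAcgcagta
Ltb (chr17:35194257-35194506, plus strand): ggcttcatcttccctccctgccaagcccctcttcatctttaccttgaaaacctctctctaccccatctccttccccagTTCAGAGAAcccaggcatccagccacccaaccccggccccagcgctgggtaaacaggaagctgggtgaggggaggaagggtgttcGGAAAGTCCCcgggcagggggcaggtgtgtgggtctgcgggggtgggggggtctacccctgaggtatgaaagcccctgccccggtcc
The Tnf window held 2 NFAT cores, 78 and 55 bases before the start, and a TATA box at position -29. The Lta window held 2 STAT5 motifs at -152 and -16 and a TATAAA at -167. The Ltb window held a STAT5 motif at -172 and an NF-kB match at -87. Over 32851 promoter windows of the same 250 bases, 3.9% held the NF-kB decamer, 6.75% the AP-1 motif, 7.02% the STAT5 motif, 20.4% the NFAT core and 7.59% the TATA box. Among 10 windows of 9 of the genes, the NF-kB decamer was in 2, AP-1 in 1, the STAT5 motif in 5, the NFAT core in 4 and the TATA box in 2. These matches describe letters and are not evidence of binding.

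Dusp2KO and WT CD44hi cells were compared first, the only comparison with 2 libraries on each side. Lta, Tnf, Tnfrsf4 and Tnfrsf18 were higher in Dusp2KO CD44hi cells, Tnfrsf1b and Cd27 were lower, and Ltb, Tnfsf11, Tnfrsf9 and Icos did not pass the threshold, a limma p adjusted over all tested genes of under 0.05. That is 6 of the 10 genes, against 26.7% of the 9691 tested genes in either direction, so a call was common in this comparison. Fold changes were taken as differences of log2(FPKM + 1); their median was 0.11 over the 10 genes and -0.02 over all tested genes. It was 0.30 over the 4 ligands and -0.21 over the 5 receptors, the latter being the value of Tnfrsf9, which did not pass. Of the other receptors, Tnfrsf4 and Tnfrsf18 rose while Tnfrsf1b and Cd27 fell. The values of Dusp2KO and WT CD44hi libraries did not overlap for 9 of the 10 genes, which was also so for 68.2% of all tested genes. In bulk libraries, fewer cells that transcribe a gene and less RNA per cell cannot be told apart.

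**Figure D2:**
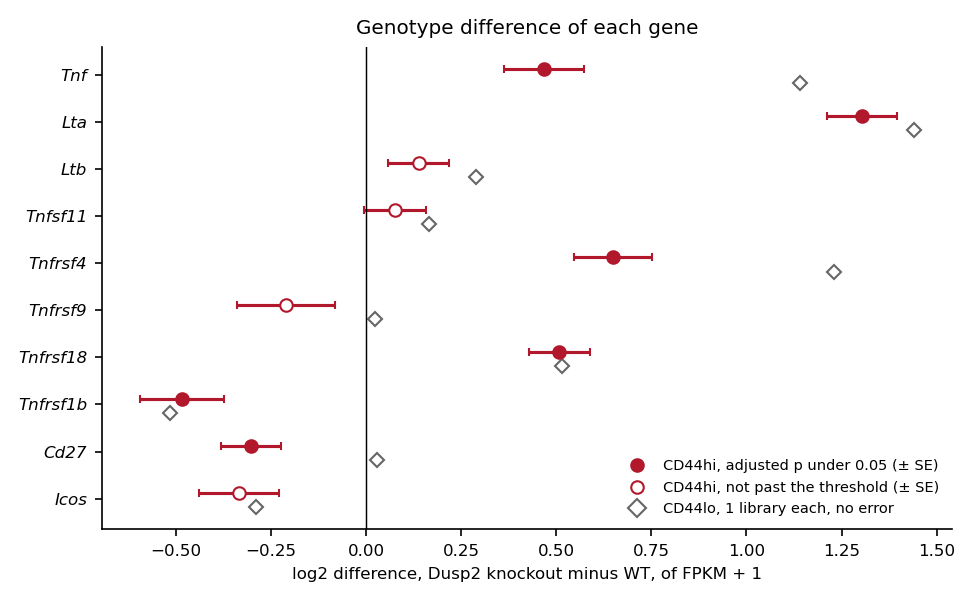
Difference between Dusp2KO and WT cells on the log2(FPKM + 1) scale for each gene; circles are CD44hi (bars, limma SE, 2 libraries each, filled where the adjusted p is under 0.05) and diamonds are the single CD44lo libraries, with no error. Lta lies farthest to the right in both fractions (1.30 and 1.44), and Tnfrsf1b lies to the left in both (-0.48 and -0.52).

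Among the ligands, Lta differed most between the genotypes. Lta had 33.4 and 37.2 FPKM in Dusp2KO CD44hi libraries, against 14.8 and 12.6 FPKM in WT CD44hi libraries, and 39.9 FPKM in the Dusp2KO CD44lo library, against 14.1 FPKM in the WT CD44lo library. The 3 Dusp2KO libraries were all above the 3 WT libraries, with no overlap in either fraction. In CD44hi cells its mean was 35.3 ± 2.68 FPKM in Dusp2KO and 13.7 ± 1.53 FPKM in WT (SD, n = 2 each), a log2 fold change of 1.30 (SE 0.0931, limma adjusted p = 0.000878). Without a filter on low values its adjusted p was 0.0636, and it stayed under the threshold in the other 16 alternatives tried. Alternatives that only left out CD44lo libraries could not move a log2 fold change in this comparison, for Lta or the other genes, and are not separate checks. Between the single CD44lo libraries the ratio of Dusp2KO to WT was 2.84, with an exact 95% interval of 2.61 to 3.08 that covers counting error only.

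Tnf, the founding cytokine of the family, was also higher in Dusp2KO cells, but by less in the CD44hi fraction. Tnf had 13.3 and 14.8 FPKM in Dusp2KO CD44hi libraries, against 10.9 and 8.88 FPKM in WT CD44hi libraries, and 24.6 FPKM in the Dusp2KO CD44lo library, against 10.6 FPKM in the WT CD44lo library. The Dusp2KO CD44lo library stood above all the others, and the WT libraries lay close together whatever their CD44 fraction. The log2 fold change in CD44hi cells was 0.47 (SE 0.105, limma adjusted p = 0.0221). That call was lost without the second Dusp2KO CD44hi library and without the filter on low values. Between the CD44lo libraries the ratio of Dusp2KO to WT was 2.32 (exact 95% interval 2.11 to 2.54, counting error only).

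Ltb, the neighbour of Tnf, did not pass the threshold between the genotypes. It had 80.7 and 72.1 FPKM in Dusp2KO CD44hi libraries, against 66.9 and 71.7 FPKM in WT CD44hi libraries, and 227 FPKM in the Dusp2KO CD44lo library, against 185 FPKM in the WT CD44lo library. The CD44hi libraries of the genotypes nearly met, and both CD44lo libraries stood far above them. Its log2 fold change between Dusp2KO and WT CD44hi cells was 0.14 (SE 0.0803, limma adjusted p = 0.242).

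Tnfsf11 encodes RANKL, the osteoclast differentiation factor that activated T cells also make. Its levels were 41.1 and 42.5 FPKM in Dusp2KO CD44hi libraries, against 42.5 and 37.0 FPKM in WT CD44hi libraries, and 8.90 FPKM in the Dusp2KO CD44lo library, against 7.83 FPKM in the WT CD44lo library. The genotypes overlapped in CD44hi cells, with a log2 fold change of 0.07 (SE 0.0814, limma adjusted p = 0.530), while both CD44lo libraries were far lower. Tnfsf11 lies on chromosome 14, where 43 of 423 tested genes passed the threshold and differed at least 2-fold between Dusp2KO and WT CD44hi cells. By the same rule there were 8 of 530 on chromosome 1, where Icos lies, and 1 of 604 on chromosome 4, where 4 of the receptors lie. Chromosome 17, with Tnf, Lta and Ltb, had 4 of 501, and chromosome 6, with Cd27, had 0 of 479.

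The make-up of the ligand transcripts therefore differed with both genotype and fraction. Ltb made up 47.9% and 43.3% of the summed ligand FPKM in Dusp2KO CD44hi libraries, against 49.5% and 55.1% in the WT CD44hi libraries, and 75.5% in the Dusp2KO CD44lo library, against 85.1% in the WT CD44lo library. Lta made up 19.8% and 22.3% in the Dusp2KO CD44hi libraries, against 11.0% and 9.70% in the WT CD44hi libraries, and 13.3% in the Dusp2KO CD44lo library, against 6.46% in the WT CD44lo library. Since lymphotoxin α and β form a heterotrimer, their ratio was also taken: Lta over Ltb was 0.413 and 0.516 in the Dusp2KO CD44hi libraries, against 0.221 and 0.176 in the WT CD44hi libraries, and 0.176 in the Dusp2KO CD44lo library, against 0.0759 in the WT CD44lo library. In each fraction the ratio was higher in the Dusp2KO libraries, and in each genotype it was higher in the CD44hi libraries. Lta over Tnf was 2.51 and 2.52 in the Dusp2KO CD44hi libraries, against 1.36 and 1.42 in the WT CD44hi libraries, and 1.62 in the Dusp2KO CD44lo library, against 1.32 in the WT CD44lo library. These ratios are descriptions of the same levels and carry no test of their own.

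**Figure D3:**
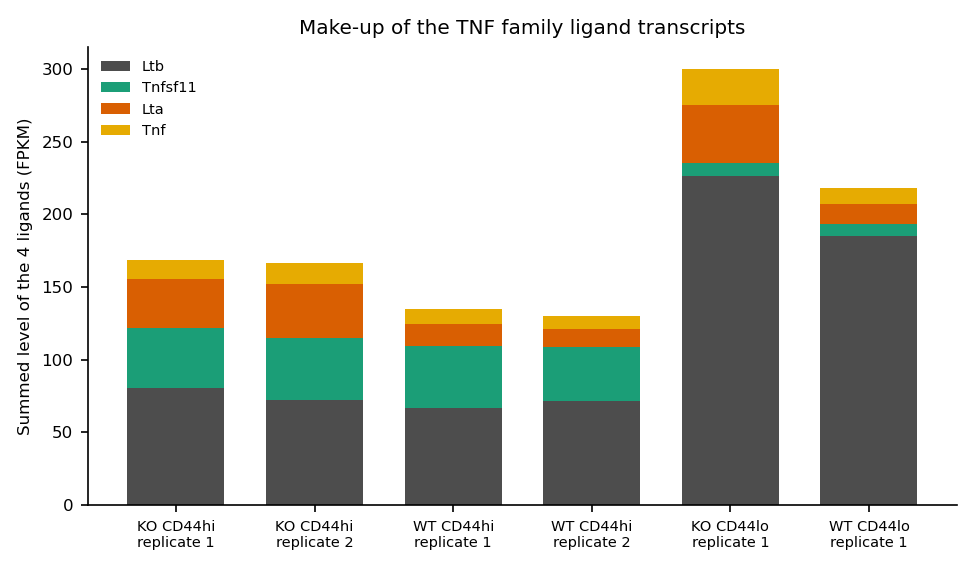
Summed level of the 4 ligand transcripts in FPKM (bars from 0, a bar per library, stacked by gene; KO, Dusp2KO). The sum was 168 and 167 FPKM in Dusp2KO CD44hi libraries, against 135 and 130.2 FPKM in WT CD44hi libraries, and 300.0 FPKM in the Dusp2KO CD44lo library, against 218 FPKM in the WT CD44lo library; Ltb fills most of the bars of the CD44lo libraries.

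The receptor genes split in direction between the genotypes. Tnfrsf4 and Tnfrsf18, which encode OX40 and GITR, are neighbours on chromosome 4 and both rose in Dusp2KO CD44hi cells. Their upstream windows are shown with the same marking because the genes lie side by side and moved together between the genotypes.
Tnfrsf4 (chr4:156013445-156013694, plus strand): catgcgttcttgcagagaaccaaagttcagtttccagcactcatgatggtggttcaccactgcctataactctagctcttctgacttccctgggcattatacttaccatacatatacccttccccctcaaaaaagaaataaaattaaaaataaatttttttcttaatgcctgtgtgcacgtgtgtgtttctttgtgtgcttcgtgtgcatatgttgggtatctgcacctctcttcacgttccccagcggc
Tnfrsf18 (chr4:156026072-156026321, plus strand): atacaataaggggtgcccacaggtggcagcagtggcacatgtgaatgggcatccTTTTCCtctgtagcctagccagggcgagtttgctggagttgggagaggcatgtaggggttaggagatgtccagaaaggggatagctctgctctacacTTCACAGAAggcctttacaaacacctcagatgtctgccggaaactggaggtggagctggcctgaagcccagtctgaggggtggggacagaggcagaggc
The Tnfrsf18 window held an NFAT core at -196 and a STAT5 motif at -99. None of the 5 motifs matched in the Tnfrsf4 window, which says only that these letters do not occur in its 250 bases, and its GC content was 42.8%, against 56.0% for Tnfrsf18.

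Tnfrsf4 had 43.6 and 47.7 FPKM in Dusp2KO CD44hi libraries, against 31.7 and 26.0 FPKM in WT CD44hi libraries, and 20.2 FPKM in the Dusp2KO CD44lo library, against 8.03 FPKM in the WT CD44lo library. Dusp2KO libraries were higher in each fraction and CD44hi libraries in each genotype, so that the WT CD44lo library was lowest. The log2 fold change in CD44hi cells was 0.65 (SE 0.103, limma adjusted p = 0.00797). Between the CD44lo libraries the ratio of Dusp2KO to WT was 2.51 (exact 95% interval 2.24 to 2.82, counting error only). Tnfrsf4 overlaps Sdf4 in the RefSeq annotation, and strand use in counting is not given in the sources used here. Sdf4 reached up to 54.5 FPKM and had a log2 fold change of -0.20 between Dusp2KO and WT CD44hi cells (SE 0.0685, limma adjusted p = 0.0712), opposite in sign to that of Tnfrsf4.

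Tnfrsf18 had 33.0 and 32.1 FPKM in Dusp2KO CD44hi libraries, against 24.2 and 21.1 FPKM in WT CD44hi libraries, and 29.9 FPKM in the Dusp2KO CD44lo library, against 20.6 FPKM in the WT CD44lo library. All Dusp2KO libraries were above all WT libraries, and within a genotype the fractions lay close. Its log2 fold change in CD44hi cells was 0.51 (SE 0.0798, limma adjusted p = 0.00771), and the CD44lo ratio of Dusp2KO to WT was 1.45 (exact 95% interval 1.34 to 1.57, counting error only). The level of Tnfrsf4 relative to Tnfrsf18 was 1.32 and 1.48 in the Dusp2KO CD44hi libraries, against 1.31 and 1.23 in the WT CD44hi libraries, and 0.675 in the Dusp2KO CD44lo library, against 0.389 in the WT CD44lo library.

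Tnfrsf1b, the receptor for TNF and secreted lymphotoxin α that is found mainly on blood cells and endothelium, moved the other way. It had 45.9 and 42.3 FPKM in Dusp2KO CD44hi libraries, against 69.4 and 55.5 FPKM in WT CD44hi libraries, and 35.0 FPKM in the Dusp2KO CD44lo library, against 50.5 FPKM in the WT CD44lo library. The 3 Dusp2KO libraries were all below the 3 WT libraries. Its log2 fold change in CD44hi cells was -0.48 (SE 0.110, limma adjusted p = 0.0227), and the CD44lo ratio of Dusp2KO to WT was 0.694 (exact 95% interval 0.666 to 0.722, counting error only). Tnf over Tnfrsf1b, the level of a ligand over that of its receptor, was 0.289 and 0.349 in the Dusp2KO CD44hi libraries, against 0.157 and 0.160 in the WT CD44hi libraries, and 0.703 in the Dusp2KO CD44lo library, against 0.210 in the WT CD44lo library.

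Cd27, a receptor carried by naive and early activated T cells, fell in Dusp2KO CD44hi cells by a smaller amount. It had 63.0 and 62.2 FPKM in Dusp2KO CD44hi libraries, against 82.6 and 72.5 FPKM in WT CD44hi libraries, and 84.7 FPKM in the Dusp2KO CD44lo library, against 83.0 FPKM in the WT CD44lo library. Only the Dusp2KO CD44hi libraries stood apart, below the other 4. The log2 fold change in CD44hi cells was -0.30 (SE 0.0786, limma adjusted p = 0.0338). That call was lost in 6 of 17 alternatives, among them those without the first and without the second Dusp2KO CD44hi library, and the adjusted p over the alternatives ranged from 0.00500 to 0.162 with limma. The CD44lo ratio of Dusp2KO to WT was 1.02 (exact 95% interval 0.985 to 1.06, counting error only).

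Tnfrsf9 encodes CD137, a receptor induced by T cell receptor stimulation. It had 207 and 210.2 FPKM in Dusp2KO CD44hi libraries, against 277 and 210.4 FPKM in WT CD44hi libraries, and 199.9 FPKM in the Dusp2KO CD44lo library, against 197 FPKM in the WT CD44lo library. The first WT CD44hi library was high, and the other 5 libraries lay close together. The log2 fold change in CD44hi cells was -0.21 (SE 0.128, limma adjusted p = 0.261). The value was -0.0122 without the first WT CD44hi library and -0.41 without the second WT CD44hi library. Either fit leaves 1 WT CD44hi library, so its residual spread comes from the Dusp2KO CD44hi pair alone. Tnfrsf9 did not pass the threshold in any alternative that kept every CD44hi library.

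Icos had 25.0 and 26.3 FPKM in Dusp2KO CD44hi libraries, against 36.4 and 29.1 FPKM in WT CD44hi libraries, and 20.7 FPKM in the Dusp2KO CD44lo library, against 25.5 FPKM in the WT CD44lo library. The Dusp2KO CD44hi libraries were below both WT CD44hi libraries, but the WT libraries were farther from each other than the Dusp2KO libraries were. The log2 fold change was -0.33 (SE 0.105, limma adjusted p = 0.0582), which missed the threshold and passed it in 5 of 17 alternatives. Without the first WT CD44hi library it was -0.18, and without the second, which is among these 5 alternatives, -0.49. Both fits leave 1 WT CD44hi library, so their residual spread comes from the Dusp2KO CD44hi pair alone. The CD44lo ratio of Dusp2KO to WT was 0.810 (exact 95% interval 0.766 to 0.857, counting error only).

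Summed over the 5 receptors, the level was 393 and 395 FPKM in Dusp2KO CD44hi libraries, against 485 and 385 FPKM in WT CD44hi libraries, and 370 FPKM in the Dusp2KO CD44lo library, against 359 FPKM in the WT CD44lo library. Tnfrsf9 supplied 52.8% to 57.1% of that sum in every library. The ligand sum over the receptor sum was 0.429 and 0.422 in the Dusp2KO CD44hi libraries, against 0.278 and 0.338 in the WT CD44hi libraries, and 0.812 in the Dusp2KO CD44lo library, against 0.607 in the WT CD44lo library. The Dusp2KO libraries had the higher ratio in each fraction, and the CD44lo library in each genotype.

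Between the single CD44lo libraries there was no replicate and no test. Tnf, Lta and Tnfrsf4 were at least 2-fold higher in the Dusp2KO library on the log2(FPKM + 1) scale and none of the 10 genes was at least 2-fold lower, against 1.68% of the 9691 tested genes in either direction (77 higher and 86 lower). The 3 genes are also among the 4 that rose in CD44hi cells. Cells were sorted into fractions after the culture, so the fractions of a genotype may share a culture and need not be independent. With genotype and fraction in an additive model over all 6 libraries, which shares the CD44hi libraries with the comparison above, Tnf, Lta, Tnfrsf4 and Tnfrsf18 were higher and Tnfrsf1b was lower in Dusp2KO. These 5 of 10 genes compare with 10.4% of all tested genes. Lta had the greatest of these log2 fold changes, 1.35 (SE 0.0883, limma adjusted p = 0.000460), and its call held in all 16 alternatives run for this model. The call of Tnf was lost in 5 of them (no filter on low values, the replicate block, and without the second Dusp2KO or either WT CD44hi library), with an adjusted p of up to 0.123. That of Tnfrsf1b was lost in 4 (no filter, and without either Dusp2KO or the first WT CD44hi library), with an adjusted p of up to 0.122. The call of Tnfrsf4 was lost without the filter and without the second WT CD44hi library, and that of Tnfrsf18 without either Dusp2KO CD44hi library. Leaving out a CD44lo library reduces this genotype comparison to that of the CD44hi libraries, so those alternatives are not separate checks.

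The CD44 fractions were compared within each genotype, 2 CD44hi libraries against a single CD44lo library that is assumed to vary like the CD44hi pairs. Tnfsf11 and Tnfrsf4 were higher and Ltb was lower in CD44hi cells of both genotypes, and Tnf and Cd27 were lower in CD44hi cells of Dusp2KO. In Dusp2KO that made 5 of the 10 genes, against 40.1% of all tested genes. In WT it made 3 of the 10, against 26.1% of all tested genes. The values of the fractions did not overlap for all 10 genes in Dusp2KO and for 8 in WT, shares that were 91.3% and 83.2% over all tested genes.

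Tnfsf11 showed the greatest difference of the 10 genes between the fractions. With the levels given above, its log2 fold change of CD44hi over CD44lo was 2.11 in Dusp2KO (SE 0.0997, limma adjusted p = 7.64e-05) and 2.20 in WT (SE 0.0997, limma adjusted p = 8.29e-05). Tnfrsf4 had a log2 fold change of 1.14 in Dusp2KO (SE 0.126, limma adjusted p = 0.00108) and 1.72 in WT (SE 0.126, limma adjusted p = 0.000313). Ltb went the other way, with log2 fold changes of -1.56 in Dusp2KO (SE 0.0983, limma adjusted p = 0.000189) and -1.41 in WT (SE 0.0983, limma adjusted p = 0.000261). These 6 calls held in each of the 15 alternatives run for them, of which leaving out a library of the other genotype could not move the log2 fold change.

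In Dusp2KO, Tnf fell in CD44hi relative to CD44lo cells with a log2 fold change of -0.77 (SE 0.128, limma adjusted p = 0.00483), whereas the value in WT was -0.10 (SE 0.128, limma adjusted p = 0.598). Cd27 had -0.43 in Dusp2KO (SE 0.0963, limma adjusted p = 0.0142) and -0.10 in WT (SE 0.0963, limma adjusted p = 0.474). The Dusp2KO call of Cd27 was lost when each library was rescaled to a total of 1000000 (log2 fold change -0.30, limma adjusted p = 0.0623), and both it and that of Tnf were lost without the filter on low values (limma adjusted p = 0.0916 and 0.0768). Lta did not pass the threshold, with -0.17 in Dusp2KO (limma adjusted p = 0.257) and -0.04 in WT (limma adjusted p = 0.826). Tnfrsf9, Tnfrsf18, Tnfrsf1b and Icos had positive log2 fold changes between 0.06 and 0.34 that did not pass in either genotype. In the additive model the fraction difference was called for Tnfsf11, Tnfrsf4 and Ltb, 3 of the 10 genes, against 27.4% of all tested genes.

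**Figure D4:**
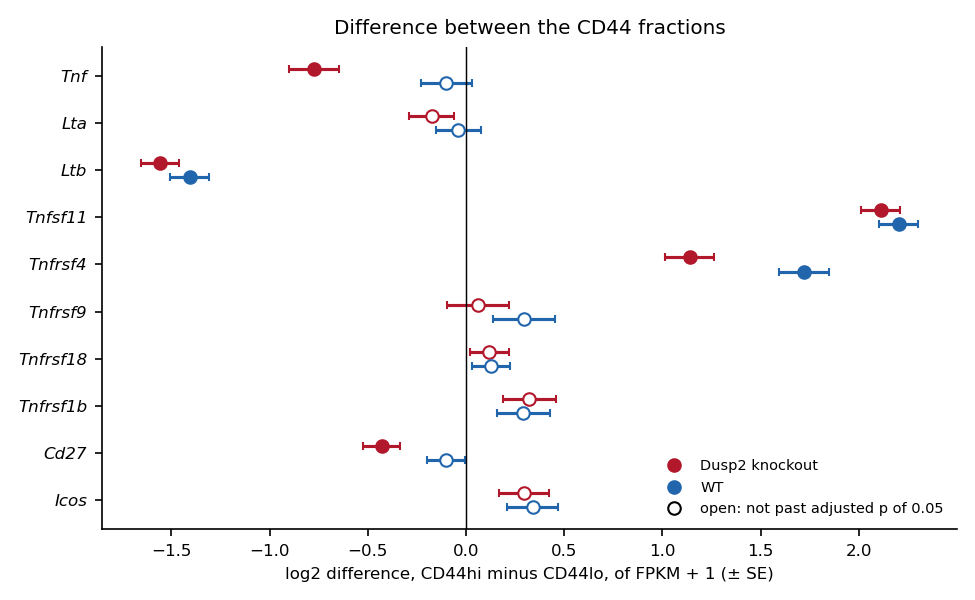
Difference between CD44hi and CD44lo cells on the log2(FPKM + 1) scale for each gene, in Dusp2KO (red, upper point) and WT (blue, lower point), with limma SE; filled circles have an adjusted p under 0.05. Tnfsf11 lies at 2.11 and 2.20 and Ltb at -1.56 and -1.41, while the points of Tnf lie apart at -0.77 and -0.10.

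Whether the genotype difference itself changed with the fraction was tested as an interaction. No gene of the 10 passed with limma, against 4.22% of all tested genes, and voom on the recovered reads also gave 0. At an unadjusted p under 0.05 there were 3, namely Tnf, Tnfrsf4 and Cd27. Their interaction terms were -0.67 for Tnf (SE 0.182, limma adjusted p = 0.0792), -0.58 for Tnfrsf4 (SE 0.179, limma adjusted p = 0.101) and -0.33 for Cd27 (SE 0.136, limma adjusted p = 0.169). Which genes passed depended on which CD44hi library was left out, for all tested genes as well as for the 10. Over the 14 alternatives run, the term ranged from -0.81 to -0.46 for Tnf, from -0.72 to -0.35 for Tnfrsf4 and from -0.42 to -0.18 for Cd27. The CD44lo side of this test rests on 1 library per genotype.

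The partners of several of these proteins were scarce in the same libraries. Tnfsf9, the ligand of CD137, had 0.873 to 1.14 FPKM, Cd70, the ligand of CD27, at most 0.293 FPKM, and Icosl, the ligand of ICOS, at most 0.698 FPKM. Tnfrsf11a, which encodes the receptor of RANKL, was listed at 0 in all libraries but the first Dusp2KO CD44hi library, where it had 0.00590 FPKM, and Ltbr, the lymphotoxin β receptor gene, had at most 0.0723 FPKM. Tnfsf4, the ligand of OX40, had 2.95 and 2.36 FPKM in Dusp2KO CD44hi libraries, against 3.01 and 2.65 FPKM in WT CD44hi libraries, and 1.16 FPKM in the Dusp2KO CD44lo library, against 1.24 FPKM in the WT CD44lo library. Tnfsf4, like its receptor gene, was higher in CD44hi cells. Its log2 fold changes of CD44hi over CD44lo were 0.75 in Dusp2KO (limma adjusted p = 0.00728) and 0.77 in WT (limma adjusted p = 0.00957). Such calls were frequent, at 40.1% and 26.1% of all tested genes. Of 5 other TNF superfamily ligands tested, Tnfsf4 included, 3 were called higher in CD44hi cells of each genotype. Unlike Tnfrsf4, Tnfsf4 did not pass between the genotypes in CD44hi cells (-0.07, limma adjusted p = 0.676).

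Other genes of the family were counted from lists compiled with earlier results of these data known, in Dusp2KO against WT CD44hi cells, where 26.7% of all tested genes passed the threshold. Of 5 other TNF superfamily ligands tested, Tnfsf14 (LIGHT) rose by 0.40 on the log2 scale (limma adjusted p = 0.00933) and 4 did not pass; the median was 0.12. It had 42.6 and 40.1 FPKM in Dusp2KO CD44hi libraries, against 32.0 and 30.3 FPKM in WT CD44hi libraries, and 40.9 FPKM in the Dusp2KO CD44lo library, against 26.5 FPKM in the WT CD44lo library. Of 11 other TNF receptors tested, 2 rose, 3 fell and 6 did not pass, against 26.7% of all tested genes past the threshold, with a median of -0.01. Tnfrsf10b, the mouse TRAIL receptor, rose by 0.65 (limma adjusted p = 0.00555). It lies on chromosome 14, which held many 2-fold genotype differences as given above, and the part of its place in this rise was not tested. The log2 fold changes of the 3 that fell were -0.36 for Tnfrsf1a, the first TNF receptor (limma adjusted p = 0.0179), -0.65 for Tnfrsf12a, the TWEAK receptor (limma adjusted p = 0.0105), and -0.76 for Tnfrsf26 (limma adjusted p = 0.00362). Both genes for receptors of TNF, Tnfrsf1a and Tnfrsf1b, were thus lower in Dusp2KO CD44hi cells, where Tnf and Lta were higher. In the CD44lo fraction the levels of Tnfrsf1a lay close, 11.1 FPKM in the Dusp2KO library against 11.4 FPKM in the WT library.

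Signalling genes downstream of the receptors moved in both directions. Of 18 TRAF and signal adaptor genes, 3 rose and 4 fell with limma, against 26.7% of all tested genes called, with a median of 0.00. With voom on the recovered reads 6 rose and 4 fell, where 2951 of all 9691 tested genes were called. The 3 that rose with limma were Traf1 by 0.34 (limma adjusted p = 0.0135), Birc3 by 0.26 (limma adjusted p = 0.0311) and Traf6 by 0.24 (limma adjusted p = 0.0391). The 4 with the smallest limma p fell, with log2 fold changes of -0.87 for Tnfaip3, which encodes the deubiquitinating inhibitor A20 (limma adjusted p = 0.00134), -0.58 for Map3k14, the kinase NIK (limma adjusted p = 0.00461), -0.54 for the A20 partner Tnip1 (limma adjusted p = 0.00490) and -0.44 for Traf2 (limma adjusted p = 0.0122). Tnfaip3 had 23.2 and 22.5 FPKM in Dusp2KO CD44hi libraries, against 45.1 and 40.4 FPKM in WT CD44hi libraries, and 28.0 FPKM in the Dusp2KO CD44lo library, against 60.4 FPKM in the WT CD44lo library. Of 14 NF-kB subunits and inhibitors, 3 rose and 5 fell, against 26.7% of all tested genes called, with a median of 0.04. Among them the inhibitor gene Nfkbia fell, with a log2 fold change of -0.62 (limma adjusted p = 0.00227), as did Nfkbiz with -0.75 (limma adjusted p = 0.00376), while Nfkbid rose by 0.65 (limma adjusted p = 0.00194) and Nfkb2 by 0.46 (limma adjusted p = 0.00644).

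Of 12 tested genes of RNA-binding regulators of TNF family mRNA, 4 fell, 0 rose and 8 did not pass in Dusp2KO CD44hi cells, with a median of -0.15, a share called that is near the 26.7% of all tested genes. With voom on the recovered reads 5 fell and 0 rose, where 2951 of all 9691 tested genes were called. At an unadjusted limma p under 0.05 there were also 0 that were higher. Zfp36, which encodes tristetraprolin, a factor that binds AU-rich elements in Tnf mRNA and promotes its decay, had 16.2 and 16.3 FPKM in Dusp2KO CD44hi libraries, against 31.9 and 32.7 FPKM in WT CD44hi libraries, and 34.4 FPKM in the Dusp2KO CD44lo library, against 55.7 FPKM in the WT CD44lo library. Its log2 fold change was -0.95 (SE 0.0597, limma adjusted p = 0.000724). The related Zfp36l1 had -0.58 (limma adjusted p = 0.00344), the endonuclease gene Zc3h12a (Regnase-1) -0.51 (limma adjusted p = 0.0133) and Zc3h12d -0.32 (limma adjusted p = 0.0150). Zfp36l2, the third gene of that family in the list, had -0.03 (limma adjusted p = 0.711).

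Of 13 tested genes of CD28, SLAM and CD2 family costimulators, 2 rose, 1 fell and 10 did not pass, near the 26.7% of all tested genes called, with a median of 0.04. Ctla4, the inhibitory receptor that shares its ligands with CD28, fell with a log2 fold change of -0.86 (limma adjusted p = 0.00536), while Slamf7 rose by 0.81 (limma adjusted p = 0.0104) and Cd226 by 0.42 (limma adjusted p = 0.0286). Cd28 itself, the relative of Icos, had -0.35 (limma adjusted p = 0.0963). Of 5 sheddase genes tested, which include Adam17 and Adam10, 0 passed with limma in this comparison and 0 with voom, 2 had an unadjusted limma p under 0.05, and their log2 fold changes lay between 0.15 and 0.28.

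**Figure D5:**
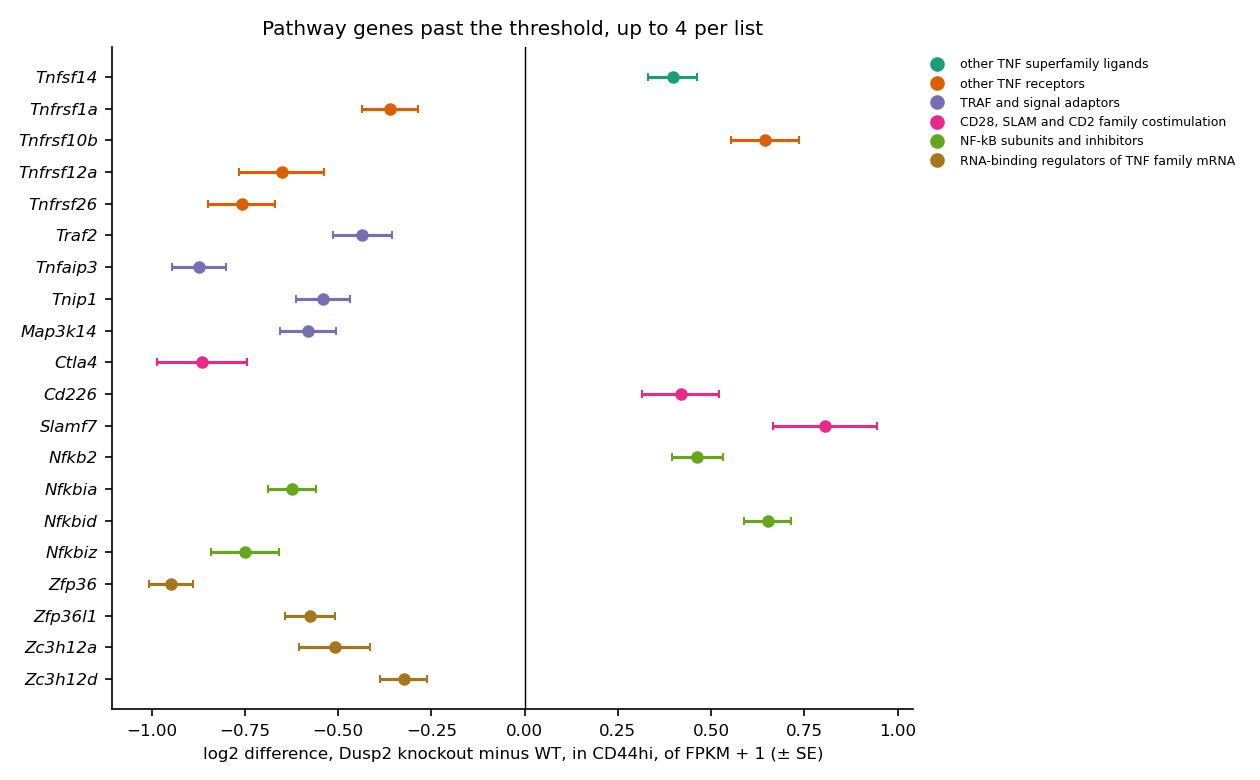
Difference between Dusp2KO and WT CD44hi cells on the log2(FPKM + 1) scale for pathway genes past the threshold, up to 4 per list (points, with limma SE, 2 libraries each; colours mark the lists). The 4 RNA-binding regulators past the threshold lie left of 0, down to -0.95 for Zfp36, whereas the NF-kB list lies on both sides.

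Genes that flank the members on the chromosome were compared as well. Around Ltb, Tnf and Lta, the tested neighbours Bag6, Prrc2a and Nfkbil1 had log2 fold changes of -0.16, 0.07 and 0.06 between Dusp2KO and WT CD44hi cells, none past the threshold, and Ddx39b had -0.22 (limma adjusted p = 0.0425). The difference of Lta was larger than that of each of these 4 neighbours, without a test between genes. Around Tnfrsf4 and Tnfrsf18, B3galt6 had 0.22 (limma adjusted p = 0.185), Isg15 -0.22 (limma adjusted p = 0.108) and Agrn 0.56 (limma adjusted p = 0.0327). Mir6973a, which lies within Ltb and can share its reads, had 1.36 and 2.42 FPKM in Dusp2KO CD44hi libraries, against 2.95 and 4.98 FPKM in WT CD44hi libraries, and 2.69 FPKM in the Dusp2KO CD44lo library, against 5.54 FPKM in the WT CD44lo library. Its log2 fold change between Dusp2KO and WT CD44hi cells was -0.77 (SE 0.236, limma adjusted p = 0.0526), greater in size than those of the other neighbours of Ltb, Tnf and Lta and opposite in sign to those of the 3 ligand genes.

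Across the 6 libraries, the genes most like each member were sought by Pearson's r of log2(FPKM + 1) among 6297 genes averaging 5 FPKM or more, as a description. The 6 libraries share genotype and fraction, so high values are frequent. Tnfsf11 was most like Hmgb3 (r = 0.999), Trub1 (r = 0.998) and Cd44 (r = 0.997), and 186 genes had r above 0.95 with it. Tnfrsf4 was most like Srsf10 (r = 0.999), Dctd (r = 0.998) and Ccnc (r = 0.998), and Ltb most like Acp5, Ctdsp1 and Psmb10 (r from 0.995 to 0.996). Above an r of 0.95 there were 11 genes for Tnf and 24 for Lta. The pattern of Tnf was most like those of Zfp764, Crk and the mitochondrially encoded ND6 (r from 0.978 to 0.991), and that of Lta like those of Tmem185b, Srpk1 and Cyba (r from 0.984 to 0.986). Among the 10 genes themselves, Tnfrsf1b and Icos had r = 0.954, Lta and Tnfrsf18 r = 0.944, Tnf and Lta r = 0.849, and Ltb and Tnfsf11 r = -0.979. Tnfrsf1b with Tnf and with Lta had r of -0.829 and -0.825.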

How the data were processed

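Bulk RNA-seq libraries of 6 sorted CD8+ T cell samples were used, grouped by the titles in the labels. The authors deposited a table of FPKM per gene for all libraries. The submitters' processing notes list HISAT2 2.0.5 and 2 builds, mm39 and hg38, and assign neither a role. The counter and annotation were not given in the sources used here. All 16220 rows with values above 0 in at least 2 libraries were whole multiples of a step (tolerance 1e-06 reads), from which whole reads were recovered; their totals give the depth per library, and intervals cover counting error only. There were 0 unused sample columns.

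limma 3.58.1 (R 4.3.3) was fitted to log2(FPKM + 1), which understates changes of low genes, with its variance trend, and p-values were adjusted by Benjamini-Hochberg at 0.05 over the 9691 rows with a mean of at least 1 FPKM. A model with 1 mean per group (2 residual degrees of freedom) gave the comparisons and the interaction, and an additive model (3 residual degrees of freedom) the adjusted ones. Replicate libraries differed by more than counting noise (chi-square per degree of freedom 6.84 in Dusp2KO and 31.2 in WT CD44hi). Python 3.11.15 with scipy 1.17.1 gave exact intervals. RefSeq GRCm38.p6 gave promoter sequences, gene order and chromosomes; 18080 of 18102 symbols matched.

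The members and lists were chosen with earlier results of these data known. Named were all 10 members, up to 4 genes per list with the smallest p past the threshold in Dusp2KO against WT CD44hi, and the 3 genes most like a member. Genes named outside that rule were chosen after their values were seen. They are ligands and receptors that bind the members, Tnfsf4, Traf1, Birc3, Traf6, Zfp36l2, Cd28, Adam17, Adam10 and chromosomal neighbours. Alternatives were other pseudocounts (0.1, 0.5), no filter or a mean of at least 5 FPKM, median-ratio scaling, rescaling to 1000000, no variance trend, the replicate number as a block, the 4 CD44hi libraries alone and leaving out each library; voom on recovered reads and removal of a loess trend on gene length (span 0.5) were added after the data were seen.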

Additional observations from a re-analysis of the deposited data

How the results depend on the processing

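Without the filter on low values, limma called 0 of the 10 genes in Dusp2KO against WT CD44hi cells, against 6 with it, although 6 had an unadjusted p under 0.05; 2 of 18122 rows passed, against 2586 of 9691 with the filter, and the cause was not tested. The same setting gave 3 in CD44hi against CD44lo in Dusp2KO (5 with the filter) and 2 in the additive genotype comparison (5 with the filter). Median-ratio scaling gave 5 genes, and removal of the length trend 6, in the additive fraction comparison (3 as reported). Leaving out a library gave 4 to 8 genes for Dusp2KO against WT CD44hi, 5 to 7 for the fractions in Dusp2KO, 3 to 7 in WT, 0 to 4 for the interaction, 2 to 6 for the additive genotype and 3 to 5 for the additive fraction comparison. The low counts of the additive genotype comparison were 3 without the first and 2 without the second Dusp2KO CD44hi library, and 3 without either WT CD44hi library. The high counts of the fractions in WT (7) and of the interaction (4) came without the second WT CD44hi library, and 5 in the additive fraction comparison came without that library or without the WT CD44lo library. Over all genes, the calls for Dusp2KO against WT CD44hi ranged from 1077 without the second Dusp2KO CD44hi library to 4105 without the first WT CD44hi library.

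Replicate numbers are shared by the CD44hi groups. The difference between the first and second library in Dusp2KO CD44hi correlated over genes with that in WT CD44hi at r = 0.0224. A single difference per genotype cannot show whether same-numbered libraries shared a day, mouse or culture. With the number as a replicate block, 7 genes were called for Dusp2KO against WT CD44hi, where 3326 of all 9691 tested genes passed. For the fractions, 7 were called in Dusp2KO, where 4378 of all passed. In WT 6 were called (3 without the block), where 2915 of all passed. The interaction had 2 (0 without the block), where 1565 of all passed. Each additive comparison had 4, where 468 of all passed for genotype and 1601 for fraction.

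Changes of sign were seen in differences that had not passed the threshold. Median-ratio scaling gave Tnfrsf9 -0.0152 for the fractions in Dusp2KO. Rescaling to a total of 1000000 moved the median of all genes to 0.18 for the fractions in Dusp2KO (0.05 as deposited) and to 0.13 for the interaction (-0.01 as deposited), and gave interactions of 0.0141 for Lta, 0.0020 for Ltb, 0.0473 for Tnfsf11, 0.143 for Tnfrsf18 and 0.109 for Icos. Removal of the length trend gave interactions of 0.0949 for Lta, 0.0735 for Ltb, 0.0693 for Tnfsf11, 0.217 for Tnfrsf18 and 0.0159 for Icos. Over libraries left out, Tnfsf11 ranged from -0.0240 to 0.173 for Dusp2KO against WT CD44hi, Tnf from -0.234 to 0.0350 and Lta from -0.145 to 0.0676 for the fractions in WT, and Tnfrsf9 from -0.22 to 0.0031 for the additive genotype comparison. Interactions ranged from -0.19 to 0.0089 for Tnfsf11, -0.103 to 0.0893 for Tnfrsf18, -0.13 to 0.19 for Tnfrsf1b and -0.20 to 0.11 for Icos.

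Among all tested genes, the calls for Dusp2KO against WT CD44hi were 1248 higher and 1338 lower, against 1292 higher and 914 lower after rescaling; those for the fractions in WT were 1490 higher and 1037 lower, against 1190 higher and 1403 lower after median-ratio scaling. The planned edgeR test on recovered reads was not run, and voom stood in for it. The CD44lo groups hold 1 library each, so their own spread is unknown, and 2 or 3 residual degrees of freedom limit each main test. With the replicate block, or without a CD44hi library, there is 1, or 2 in the additive model.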
